A study of Mus musculus with 12 samples.

Results

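The basement membrane set comprised 10 genes of the 24421 endogenous genes in the count table, chosen by name from the known composition of this matrix. Earlier results of these data were known when they were chosen. The members were the collagen IV chains Col4a1 and Col4a2, the laminin chains Lama1, Lama5, Lamb1 and Lamc1, the nidogens Nid1 and Nid2, the proteoglycan Hspg2 (perlecan) and the collagen-binding protein Sparc. All 10 were among the 14497 genes that passed the filter on low counts, with 316 to 38752 reads per library and gene. PolyA RNA was sequenced from 12 libraries of mouse E14 embryonic stem cells, in 3 groups of 4 that differ in the guide RNA. NT stands for the control guide, and the other groups received Mycn-gRNA2 or Mycn-gRNA3. Every group, NT included, had the genotype label WT(dCas_Alkbh5), a fusion of a Cas protein named dCas with Alkbh5, the enzyme that removes the methyl mark m6A from RNA. All cells were grown on gelatin in serum and LIF, were transfected with the guide plasmid, were kept for 3 days in 8 µg/mL blasticidin and then for 5 days in 200 nM INK128. INK128 inhibits the kinase mTOR and brings these cells into a slowly dividing, paused state, so the comparisons below are between guides within paused cells. The labels do not say whether the fusion line is a clone or whether replicates were separate cultures, and p-values therefore measure the spread between these libraries, which may be technical.

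Basement membranes are thin sheets of matrix that cells deposit beneath themselves. Laminin heterotrimers, each with an alpha, a beta and a gamma chain, form a network at the cell surface, collagen IV forms a covalently crosslinked network, and nidogens and perlecan connect them. In the early mouse embryo the laminin network appears first, around the inner cells, and the primitive endoderm and its parietal derivative are strong producers of collagen IV and laminin, laid down as Reichert's membrane. Sparc binds collagen and has a role in its deposition.

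Col4a1 and Col4a2 are neighbours in head-to-head orientation, and their promoter sequences are shown because these were the members that rose with both guides. In the count table's annotation of mm10, Col4a1 lay on the minus strand at chr8:11198423-11312826 and Col4a2 on the plus strand at chr8:11312829-11449287. The following windows, from RefSeq on GRCm38.p6, run from 250 bases before to 50 bases after each gene's start, 5′ to 3′ on the gene's own strand. Capitals mark GC boxes (GGGCGG) and CCAAT boxes (CCAAT) on either strand.
Col4a1, chr8:11312777-11313076, minus strand: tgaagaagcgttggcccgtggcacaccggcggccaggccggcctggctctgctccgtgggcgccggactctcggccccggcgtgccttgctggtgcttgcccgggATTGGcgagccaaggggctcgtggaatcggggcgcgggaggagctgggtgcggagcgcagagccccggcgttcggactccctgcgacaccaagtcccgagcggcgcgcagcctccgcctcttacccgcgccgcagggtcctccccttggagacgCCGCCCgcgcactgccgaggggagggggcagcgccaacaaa
Col4a2, chr8:11312555-11312854, plus strand: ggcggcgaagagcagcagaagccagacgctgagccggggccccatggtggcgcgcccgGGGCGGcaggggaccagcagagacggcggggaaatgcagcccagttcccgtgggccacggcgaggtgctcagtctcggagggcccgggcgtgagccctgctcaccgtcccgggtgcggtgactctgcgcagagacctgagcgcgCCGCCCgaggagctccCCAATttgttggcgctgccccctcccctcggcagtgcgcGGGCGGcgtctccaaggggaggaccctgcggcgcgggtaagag

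The RefSeq starts of the 2 genes lay 21 bases apart, and the windows shared 78 bases, which hold 1 GC box. The Col4a1 window had 74% G and C and 37 CpG dinucleotides, and the Col4a2 window 73.7% and 33, against medians of 52.7% and 7 over 32851 promoter windows of the same length. The Col4a1 window held 1 GC box and 1 CCAAT box, and the Col4a2 window 3 GC boxes and 1 CCAAT box, motifs found in 35.7% and 37.4% of all windows. Windows were found for 7 of the 10 members. None of the 7 held the letters CACGTG, the E-box that MYC family proteins are known to bind, which 7.15% of all windows hold. None of them held TATAAA (13.6% of all windows), a GATA motif (29.8%; its forms were AGATAA and AGATAG, with TGATAA and also TGATAG) or TGACTCA (5.2%) on either strand. Hspg2 held 5 GC boxes, Lama5 4, Lamb1 2 and Nid1 1, and the Sparc window held none and had the lowest share of G and C of the 7 at 55.3%.

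The other members lay on separate chromosomes of mm10. Lamc1 was at chr1:153218922-153332786, Lama5 at chr2:180176373-180225859 and Sparc at chr11:55394159-55420080, all on the minus strand. Hspg2 was at chr4:137468803-137570630, Lamb1 at chr12:31265294-31329639, Nid1 at chr13:13437602-13512275, Nid2 at chr14:19751257-19811787 and Lama1 at chr17:67697265-67822645, all on the plus strand. The counts are sums over annotated exons, from 10 exon blocks in Sparc to 97 in Hspg2. The exons of Nid2 shared 386 bases with those of 2700060E02Rik on the opposite strand, a gene with 33.8% as many reads as Nid2. The kit was directional, but no source at hand states the strand setting of the counting, so reads of these genes cannot be told apart in the shared bases.

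The libraries held 17248564 to 33819855 endogenous reads, and 1.04% to 1.61% of all reads were on ERCC RNAs, synthetic transcripts added in a fixed amount to RNA from 200000 cells per sample. Endogenous reads per ERCC read were 65.5 ± 4.65 (SD, n = 4) in NT, 82.0 ± 12.4 in Mycn-gRNA2 and 90.2 ± 5.13 in Mycn-gRNA3. Values are therefore given on 2 scales: CPM, the reads of a gene relative to the endogenous library size after TMM scaling, which is relative to the transcriptome, and reads per 1000 ERCC reads, which retains a shift that all genes share. Mycn was 141 ± 4.17 CPM in NT, 236 ± 26.7 in Mycn-gRNA2 and 277 ± 16.7 in Mycn-gRNA3, a log2 difference of 0.86 with both guides (edgeR adjusted p = 3.39e-06), and Alkbh5 differed by 0.00 (adjusted p = 0.967). The stem cell markers Pou5f1, Nanog and Sox2 stood at 986 ± 109, 490 ± 23.2 and 740 ± 48.0 CPM in NT. The groups also differed in 4 Y-linked genes (Kdm5d, Eif2s3y, Ddx3y and Uty, chosen after their values were seen), whose summed reads were 1 to 4 per NT library, 544 to 1927 per Mycn-gRNA2 library and 1541 to 1714 per Mycn-gRNA3 library. The guide, and whatever else sets the NT cells apart in these genes, cannot be told apart in any comparison with NT below. Over genes whose mean log2 CPM exceeded 3, median log2 differences were −0.126 on chromosome 1 and −0.116 on chromosome 8, and −0.072 to 0.0317 on the other autosomes.

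Per kilobase of exon, Lamc1, the shared gamma chain of most embryonic laminins, was the highest member in NT, at 174 ± 12.5 CPM per kb (SD, n = 4). Hspg2 followed at 94.1 ± 16.7, Sparc at 69.0 ± 7.68, Nid2 at 67.1 ± 13.1, Lama5 at 40.1 ± 6.19, Lamb1 at 26.9 ± 4.04, Nid1 at 23.3 ± 2.46 and Lama1 at 12.6 ± 1.69 CPM per kb. The collagen IV chains were the lowest members, at 3.82 ± 0.903 CPM per kb for Col4a1 and 3.02 ± 0.678 for Col4a2. In this order, the means of the neighbours Sparc and Nid2 differed by less than either SD. Those of Lamb1 and Nid1, and of Col4a1 and Col4a2, differed by less than the larger SD of the pair but by more than the smaller, and their ranges overlapped. With Mycn-gRNA3, Col4a1 reached 10.7 ± 0.688 CPM per kb, next to Lama1 at 11.3 ± 0.671. The 10 genes together took 0.285% to 0.454% of endogenous reads.

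**Figure D1:**
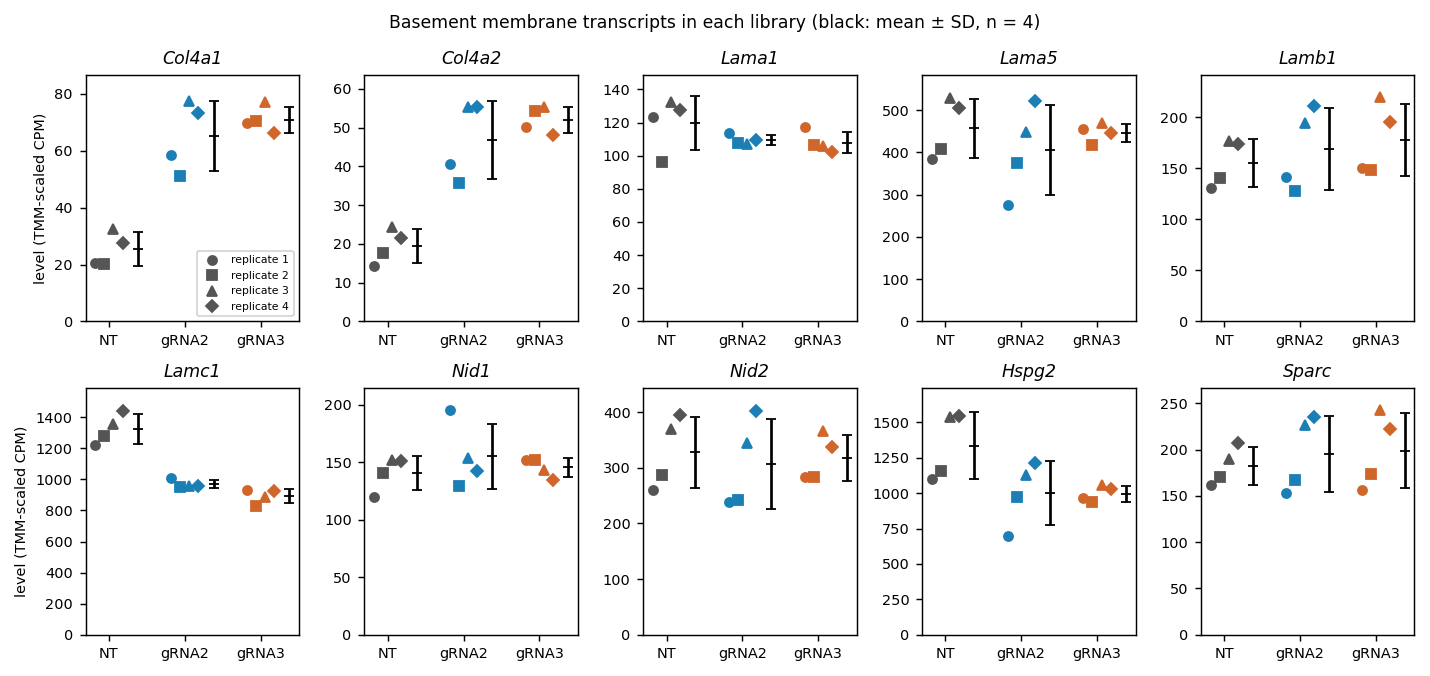
Level of each member in each library (TMM-scaled CPM, linear axes from 0). Symbols are replicates, grey for NT, blue for Mycn-gRNA2 and orange for Mycn-gRNA3, and black bars are means ± SD of 4 libraries. The guide libraries of Col4a1 (51.2 to 77.4 CPM) and Col4a2 (35.8 to 55.3) all lie above NT, those of Lamc1 (831 to 1009) all lie below it, and the other 7 members overlap.

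The comparison of both Mycn guides with NT asks which transcripts differ when the fusion is directed with a Mycn guide. Relative to the transcriptome, 2 of the 10 members rose, Col4a1 and Col4a2, 2 fell, Lamc1 and Hspg2, and 6 did not pass the test (edgeR quasi-likelihood test, Benjamini-Hochberg adjusted p under 0.05 over 14497 genes). Over all genes tested, 14.9% were called higher and 13% lower, so the members' shares were near the background. The members' median log2 difference was 0.0112, against −0.00269 over all genes. In bulk RNA, fewer cells of a type and less RNA per cell cannot be told apart.

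Col4a1, which supplies most of the chains of the common collagen IV trimer, measured 20.6, 20.2, 32.6 and 27.7 CPM in the 4 NT libraries. It measured 58.4, 51.2, 77.4 and 73.3 CPM with Mycn-gRNA2 and 69.6, 70.5, 77.1 and 66.2 CPM with Mycn-gRNA3. All 8 guide libraries were above every NT library, and the lowest of them was 51.2 against an NT maximum of 32.6. The log2 difference was 1.42 (SE 0.142, adjusted p = 1.38e-05), a 2.68-fold rise.

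Col4a2, its partner in the trimer, measured 14.3, 17.7, 24.3 and 21.4 CPM in NT, 40.6, 35.8, 55.3 and 55.3 CPM with Mycn-gRNA2 and 50.1, 54.2, 55.2 and 48.1 CPM with Mycn-gRNA3. These groups did not overlap either, and NT replicates 3 and 4 were again above replicates 1 and 2. The log2 difference was 1.34 (SE 0.148, adjusted p = 3.1e-05), a 2.54-fold rise. Genes with every guide library above every NT library made up 8.56% of all genes tested, and 4.28% of genes differed by more than 1 on the log2 scale in either direction.

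Lamc1 measured 1224, 1277, 1358 and 1441 CPM in NT. It measured 1009, 954, 957 and 959 CPM with Mycn-gRNA2 and 929, 831, 886 and 927 CPM with Mycn-gRNA3, and all 8 guide libraries were below every NT library, as for 6.87% of all genes. The log2 difference was −0.51 (SE 0.0547, adjusted p = 2.54e-05), a level 0.702 times that of NT. With replicates 1 and 2 of each group alone, the log2 difference was −0.42 and was not called (adjusted p = 0.0755). That fit called 178 genes in all, against 4034 with all libraries.

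Hspg2, a large heparan sulfate proteoglycan of the matrix, measured 1102, 1156, 1534 and 1542 CPM in NT. It measured 699, 973, 1125 and 1216 CPM with Mycn-gRNA2 and 963, 934, 1054 and 1030 CPM with Mycn-gRNA3, so 6 of the 8 guide libraries were below every NT library and the Mycn-gRNA2 group overlapped NT. The log2 difference was −0.42 (SE 0.129, adjusted p = 0.0273). The call was lost without NT replicate 3 (adjusted p = 0.11), without NT replicate 4 (adjusted p = 0.107) and with replicates 1 and 2 alone (adjusted p = 0.28), which leaves 1 lower member, Lamc1, in the first and second of these and 0 in the third.

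The remaining laminin chains, the nidogens and Sparc differed by −0.14 to 0.16 on the log2 scale with both guides. Lama1, the alpha chain typical of early embryonic laminin, was 96.3 to 132 CPM in NT, 107 to 114 in Mycn-gRNA2 libraries and 103 to 117 in Mycn-gRNA3 libraries, a log2 difference of −0.14 (95% interval −0.30 to 0.02, adjusted p = 0.183). Lama5, the alpha chain of many later basement membranes, differed by −0.10 (−0.39 to 0.19) and Lamb1, the main embryonic beta chain, by 0.16 (−0.16 to 0.48). Nid1 differed by 0.10 (−0.11 to 0.31), Nid2 by −0.07 (−0.39 to 0.25) and Sparc by 0.11 (−0.18 to 0.41). These intervals still admit changes of about the size seen in Hspg2 for Lama5, Lamb1, Nid2 and Sparc. Without NT replicate 2, Lama1 passed the test as lower, at −0.23 (adjusted p = 0.0125).

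**Figure D2:**
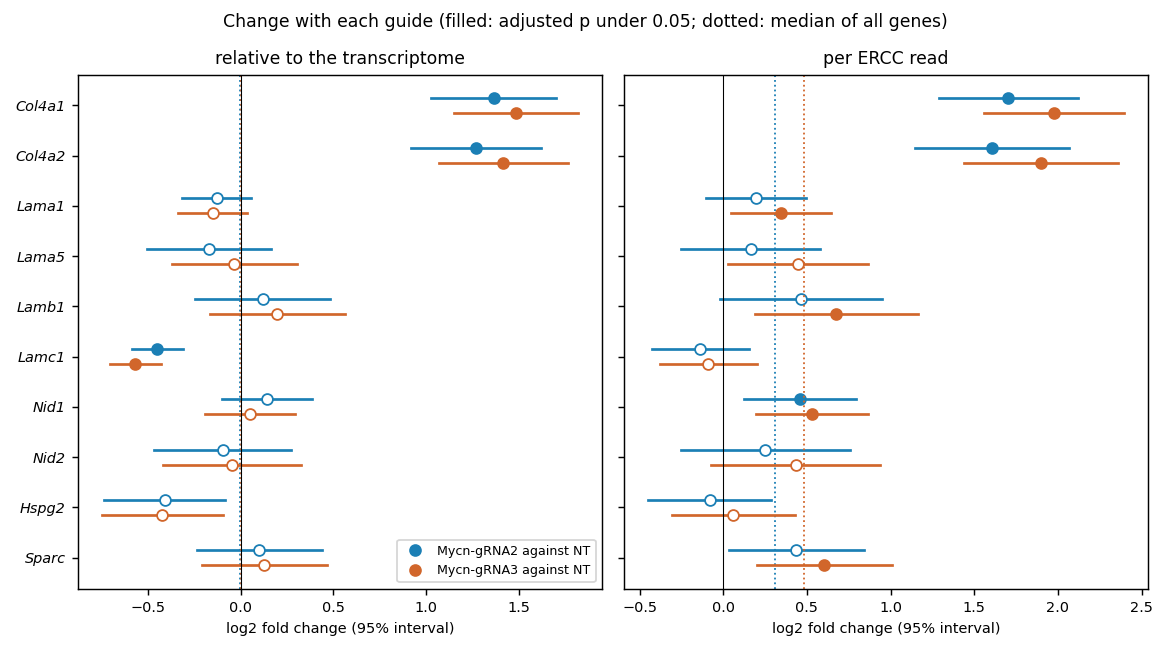
Log2 fold change of each member with Mycn-gRNA2 (blue) and Mycn-gRNA3 (orange) against NT, relative to the transcriptome (left) and per ERCC read (right), with 95% intervals from the edgeR fit. Filled points passed an adjusted p of 0.05 and dotted lines mark the median of all genes tested, which on the right is 0.311 for Mycn-gRNA2 and 0.481 for Mycn-gRNA3. Col4a1 and Col4a2 lie far to the right of these lines in both panels, and Lamc1 lies to their left.

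The guides were also compared with NT one at a time, against the same 4 NT libraries. Mycn-gRNA2 gave 2 members higher (10.1% of all genes were called higher) and 1 lower (7.05%), and Mycn-gRNA3 gave 2 higher (14.8%) and 1 lower (12.2%). Col4a1 rose by 1.36 with Mycn-gRNA2 (SE 0.157, adjusted p = 7.67e-05) and was 1.49 higher with Mycn-gRNA3 (SE 0.157, adjusted p = 2.59e-05), and Col4a2 by 1.27 and 1.42 (adjusted p = 0.00019 and 5.37e-05). Lamc1 fell by 0.45 and 0.57 on the log2 scale (adjusted p = 0.000408 and 4.78e-05). Hspg2 differed by −0.41 (adjusted p = 0.0781) and −0.42 (adjusted p = 0.0528) and passed with neither guide, but it was called with Mycn-gRNA3 without NT replicate 1 or 2 or Mycn-gRNA2 replicate 1 or 4, and with Mycn-gRNA2 without Mycn-gRNA2 replicate 4. Lama1 was called lower with each guide without NT replicate 2 (adjusted p = 0.0425 and 0.019), so that with 1 library left out 1 to 2 members were lower with Mycn-gRNA2 and 1 to 3 with Mycn-gRNA3. With replicates 1 and 2 alone, Lamc1 was not called with Mycn-gRNA2 (−0.34, adjusted p = 0.256) or Mycn-gRNA3 (−0.50, adjusted p = 0.0718). These fits called 33 and 226 genes in all, against 2484 and 3925 with all libraries.

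Between Mycn-gRNA3 and Mycn-gRNA2, 0 members were called by edgeR, 0 had an unadjusted p under 0.05 and 0 were called by DESeq2. Over all genes edgeR called 0% higher and 0% lower, with 1274 genes at an unadjusted p under 0.05, and DESeq2 called 1 gene. The members' log2 differences between the guides ran from −0.119 in Lamc1 to 0.148 in Col4a2. Lamc1 was lower by CPM with Mycn-gRNA3 in all 4 pairs of same-numbered libraries, and was not called with the number as a block either (−0.12, adjusted p = 0.495). Per ERCC read, edgeR called 0 members at an adjusted or unadjusted p under 0.05, with 0.0069% of all genes higher and 0% lower. On that scale 1 member, Lama5, was called higher with Mycn-gRNA3 when Mycn-gRNA2 replicate 4 was left out (0.55, adjusted p = 0.0271).

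Per ERCC read the picture differed for the members near the middle of the set. With both guides 5 members rose, Col4a1, Col4a2, Lamb1, Nid1 and Sparc, and 0 fell (0 at an unadjusted p under 0.05 by edgeR, and 0 by limma on the deposited log2 values). On this scale 56.4% of all genes were called higher and 0.931% lower, and the median log2 difference was 0.394 over all genes and 0.419 over the members. The members' count of 5 of 10 was therefore near the background.

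Col4a1 measured 1.23, 1.49, 2.14 and 1.73 reads per 1000 ERCC reads in NT, 4.84, 3.27, 6.35 and 7.03 with Mycn-gRNA2 and 6.63, 6.56, 7.32 and 5.43 with Mycn-gRNA3. Its log2 difference was 1.84 (SE 0.186, adjusted p = 4.79e-08), and that of Col4a2 was 1.75 (SE 0.202, adjusted p = 1.03e-06). In both genes every guide library was above every NT library, as in 11.5% of all genes, and the lowest guide library was Mycn-gRNA2 replicate 2. These differences exceeded the median of all genes by more than 1 on the log2 scale.

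Lamb1 measured 7.78, 10.3, 11.6 and 10.9 reads per 1000 ERCC reads in NT, 11.7, 8.18, 15.9 and 20.2 with Mycn-gRNA2 and 14.3, 13.8, 20.8 and 16.0 with Mycn-gRNA3. Of the 8 guide libraries, 7 were above every NT library, the exception being Mycn-gRNA2 replicate 2, and the log2 difference was 0.57 (SE 0.202, adjusted p = 0.026). Nid1, a connector between laminin and collagen IV, rose by 0.50 (SE 0.145, adjusted p = 0.00555), with 7 of 8 guide libraries above NT. Sparc rose by 0.52 (SE 0.171, adjusted p = 0.0145), with 6 of 8 above. Lamb1 and Sparc were not called without NT replicate 1 (adjusted p = 0.0863 and 0.0676), which leaves 3 members higher.

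Lamc1 measured 73.0, 94.0, 89.2 and 90.4 reads per 1000 ERCC reads in NT, 83.6, 60.9, 78.6 and 91.99 with Mycn-gRNA2 and 88.4, 77.3, 84.1 and 76.0 with Mycn-gRNA3. The groups overlapped on this scale, with a log2 difference of −0.11 (95% interval −0.36 to 0.14, adjusted p = 0.429). Hspg2 differed by −0.01 (−0.33 to 0.31). The fall of Lamc1 and Hspg2 relative to the transcriptome was thus not detected per ERCC read, where most genes were higher. Lama1, Lama5 and Nid2 differed by 0.27, 0.31 and 0.34 and did not pass the test.

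With Mycn-gRNA2 alone, 3 members rose per ERCC read, Col4a1, Col4a2 and Nid1 (26.3% of all genes were higher and 0.517% lower), and with Mycn-gRNA3 6 rose, the former 3 with Lama1, Lamb1 and Sparc (60.7% higher and 0.504% lower). None fell with either guide by edgeR or by limma, at an adjusted p, and 0 had an unadjusted p under 0.05 as lower. Lama5 with Mycn-gRNA3 was 36.5 to 44.5 reads per 1000 ERCC reads, above the NT range of 23.0 to 34.7, but differed by 0.45 with an adjusted p of 0.0579. Without Mycn-gRNA2 replicate 2, 6 members were called higher with Mycn-gRNA2 instead of 3. The call of Nid1 with Mycn-gRNA2 was lost without NT replicate 1, 3 or 4 or Mycn-gRNA2 replicate 1, 3 or 4 (adjusted p from 0.0536 to 0.164). That of Lama1 with Mycn-gRNA3 was lost without NT replicate 1, 2 or 4, Mycn-gRNA2 replicate 3 or Mycn-gRNA3 replicate 1, 2 or 3 (adjusted p from 0.0544 to 0.143), and that of Lamb1 without NT replicate 1 (adjusted p = 0.0542). Without Mycn-gRNA2 replicate 1, Lamb1 and Sparc were called with Mycn-gRNA2 and Lama5 and Nid2 with Mycn-gRNA3.

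**Figure D3:**
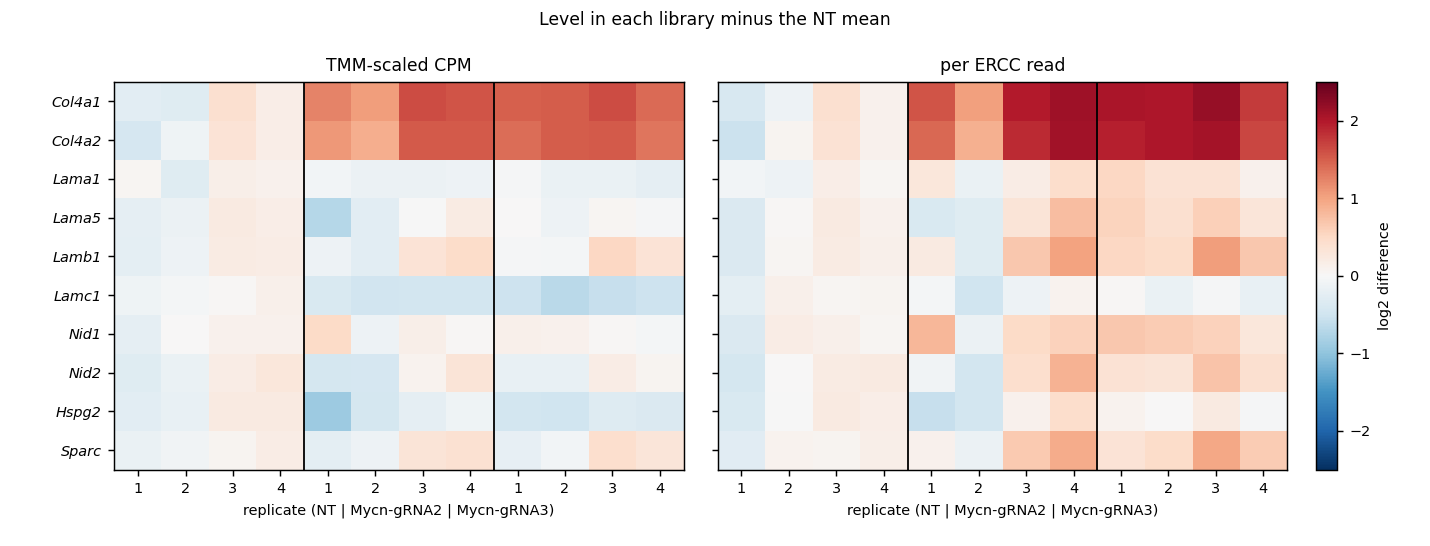
Log2 level of each member in each library minus the mean of the 4 NT libraries, by TMM-scaled CPM (left) and per ERCC read (right), with red above and blue below the NT mean. Columns are replicates 1 to 4 of NT, Mycn-gRNA2 and Mycn-gRNA3. Lamb1, Nid2, Hspg2 and Sparc are higher in replicates 3 and 4 than in 1 and 2 of every group on the left, and Mycn-gRNA2 replicate 2 is the lowest guide column for 8 of the 10 members on the right.

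Some members differed by replicate number within the groups. By CPM, replicates 3 and 4 were both above replicates 1 and 2 in all 3 groups for Lamb1, Nid2, Hspg2 and Sparc, a pattern found in 3.78% of all genes. Per ERCC read it held for 2 members, Lamb1 and Nid2, and for 1.57% of all genes. Whether chance could give this pattern was not tested. By CPM, the mean log2 difference of Nid2 between replicates 3 and 4 and replicates 1 and 2 was 0.479 in NT, 0.632 in Mycn-gRNA2 and 0.314 in Mycn-gRNA3, larger than its difference between guides and NT. For Sparc it was 0.255, 0.531 and 0.494, and for Lamb1 0.373, 0.586 and 0.474. Lamc1 differed by 0.162, −0.034 and 0.045 between the same replicates. The labels do not say what the replicate numbers mark, and their part in the results was examined by fits within replicates 1 and 2, within replicates 3 and 4, and with the number as a block. Within replicates 3 and 4, Lamb1 (0.22, adjusted p = 0.00882) and Sparc (0.22, adjusted p = 0.0078) were called higher and Lama1 lower (−0.29, adjusted p = 0.000478) with both guides. Within replicates 1 and 2 these were 0.07, −0.03 and 0.03. Over all genes, 6385 were called with both guides within replicates 3 and 4 and 178 within replicates 1 and 2, against 4034 with all libraries. Col4a1 and Col4a2 were called higher in each subset. In Mycn-gRNA2, replicate 1 or replicate 2 was the lowest guide library for 8 members by CPM, and replicate 2 alone for 8 members per ERCC read.

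Ratios between members of one library need no scaling between libraries. Col4a1 to Col4a2, chains of the same trimer, stood at 1.27 ± 0.124 per kb in NT, 1.36 ± 0.05 in Mycn-gRNA2 and 1.33 ± 0.0429 in Mycn-gRNA3 (SD, n = 4), and the log2 difference with both guides was 0.09 (exact two-sided permutation p = 0.198). Lamb1 to Lamc1, beta and gamma chain of the same laminins, was 0.141, 0.145, 0.171 and 0.159 per kb in NT. It was 0.185, 0.177, 0.267 and 0.290 with Mycn-gRNA2 and 0.213, 0.235, 0.327 and 0.277 with Mycn-gRNA3, and all 8 guide libraries were above every NT library.

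The Lamb1 to Lamc1 ratio was 1.57 times as high with both guides (log2 difference 0.65, SE 0.13, exact two-sided permutation p = 0.00404, the smallest that 8 against 4 libraries can give), but after adjustment over the 16 ratio tests the p was 0.0646 and did not pass. With 16 tests, no single ratio could pass in this design, whatever its size. Each guide alone gave an exact permutation p of 0.0286, the smallest possible for 4 against 4 (adjusted p = 0.152). Lama1 to Lama5 was 0.316 ± 0.0451 per kb in NT and differed by −0.02 with both guides (exact permutation p = 0.857). Nid1 to Nid2 was 0.351 ± 0.0382 in NT and differed by 0.17 (exact permutation p = 0.453). Its SD was 0.162 in Mycn-gRNA2, where replicate 1 stood at 0.661. None of the 16 ratio tests passed adjustment, and 3 had an unadjusted exact p under 0.05.

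**Figure D4:**
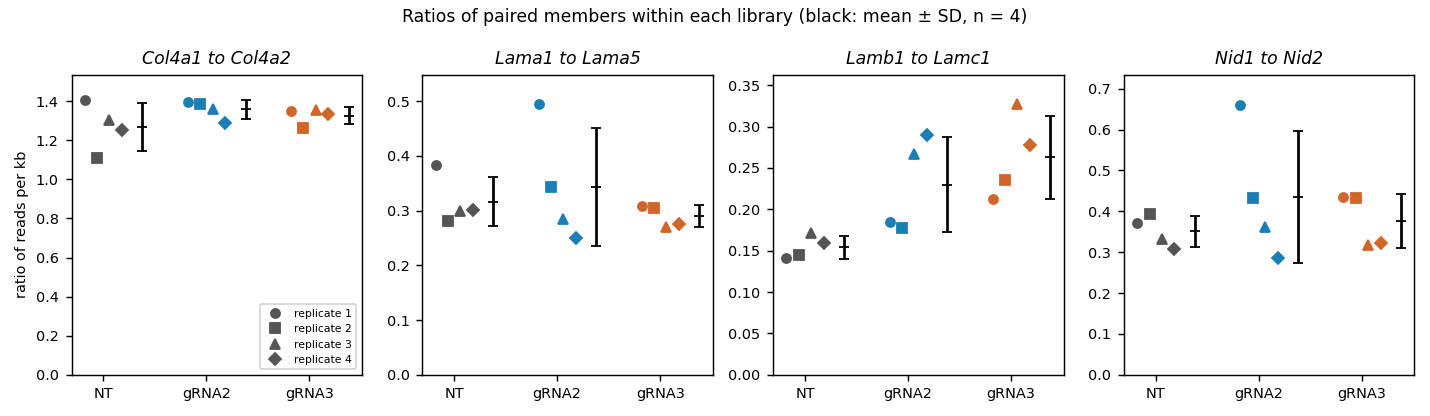
Ratio of reads per kb between paired members within each library, on linear axes from 0. Symbols are replicates and black bars are means ± SD of 4 libraries. The 4 NT libraries of Lamb1 to Lamc1 lie between 0.141 and 0.171, below all guide libraries (0.177 to 0.327), whereas Col4a1 to Col4a2 lies between 1.11 and 1.40 in all groups.

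Among the other laminin chains, Lamb2, an alternative beta chain, was 51.5 ± 6.28 CPM in NT and had a log2 difference of 0.05 with both guides, relative to the transcriptome (adjusted p = 0.765). Lama3 differed by −0.08, Lamb3 by −0.07 and Lama4 by −0.23, and none of these passed. Lama2, Lamc3 and Col4a3 to Col4a6 had 5 to 48 reads in total per group and were not tested. Genes within 500 kb of a member, a window chosen after seeing the data, were also examined. Near Lamc1, Arpc5 was called higher (0.19) and Nmnat2 (−0.50) and Dhx9 (−0.20) lower. Of the 10 tested genes within that distance of Col4a1, 2 were higher, Col4a2 and Rab20 (1.47), a small GTPase gene on the far side of Col4a2, and 5 were lower.

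Other genes of the matrix were grouped by role, and over all genes tested 14.9% were called higher and 13% lower. Of 19 other basement membrane and pericellular matrix genes tested, 7 rose and 2 fell with both guides, with a median log2 difference of 0.211. Fras1 and Frem2, which act together in the attachment of embryonic epidermis, rose by 0.92 (adjusted p = 0.00103) and 0.78 (adjusted p = 0.000477). Fbln1, a fibulin, rose by 0.75, and Efemp2, a fibulin needed for elastic fibres, by 0.80. The genes that fell, named after their values were seen, were Fn1 (fibronectin, −0.34) and Hmcn1 (hemicentin, −0.47), and without NT replicate 1 or 4 the lower count was 1. Tinag had 0 reads in all libraries.

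Of 18 matrix receptors tested, 8 rose and 1 fell (median 0.246), the higher count being 5 without NT replicate 1, 2 or 4 or without Mycn-gRNA2 replicate 3. The lower call was lost when any 1 of the NT or Mycn-gRNA3 libraries or Mycn-gRNA2 replicate 3 was left out. Sdc4, a transmembrane heparan sulfate proteoglycan, measured 10.54 to 14.8 CPM in NT, 35.5 to 40.4 in Mycn-gRNA2 libraries and 36.7 to 39.3 in Mycn-gRNA3 libraries, and rose by 1.61 (adjusted p = 6.29e-08). Itga1, the alpha subunit of a collagen-binding integrin, rose by 0.98, Dag1, the laminin receptor dystroglycan, by 0.52 and Gpc4, a glypican, by 0.35. Of 21 matrix proteases and inhibitors, 10 rose and 1 fell (median 0.241), or 2 fell without Mycn-gRNA2 replicate 1. Adamts1, a secreted metalloprotease, rose by 1.87 from 2.42 to 3.95 CPM in NT to 10.1 to 12.3 in the guide libraries, and Serpine2, an inhibitor of serine proteases, rose by 0.93. Mmp9, a gelatinase that also cleaves collagen IV, rose by 2.40. It measured 0.181 to 0.404 CPM in NT, a level of few reads, and 0.767 to 2.05 CPM in the guide libraries. Mmp9, counted among the 10, passed the filter on low counts through the guide libraries alone and could only be called higher.

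Of 21 genes for collagen folding, modification and crosslinking, 6 rose and 0 fell by edgeR (1 lower at an unadjusted p under 0.05, 1 lower by DESeq2), with a median of 0.161, and 1 was lower without NT replicate 1, Mycn-gRNA2 replicate 1 or Mycn-gRNA2 replicate 4. P3h2, a prolyl hydroxylase that acts on collagen IV, was among the 6 and higher by 1.16 (adjusted p = 0.00295). It measured 0.352 to 0.406 CPM in NT and 0.543 to 1.09 in the guide libraries. P3h2 passed the filter on low counts through the guide libraries alone and could only be called higher. Pxdn, the peroxidase that crosslinks collagen IV, rose by 0.56 (adjusted p = 0.00389). Plod2, a lysyl hydroxylase, rose by 0.39 and P4ha2, a prolyl hydroxylase subunit, by 0.50. Of 13 collagen export genes, 2 rose, Sec24d (0.22) and the transcription factor gene Creb3l2 (0.35), and 1 fell, the COPII coat gene Sec23a (−0.29). The median was −0.00907. Without NT replicate 1, 3 or 4, Mycn-gRNA2 replicate 3, or Mycn-gRNA3 replicate 1 or 3, 1 export gene was called higher, and without Mycn-gRNA2 replicate 2 the lower count was 2. Of 15 heparan sulfate synthesis genes, 3 rose and 3 fell (median −0.0701), with Hs6st2, a sulfotransferase, at 1.31, Extl2 at 0.30, Ndst2 at −0.33 and Xylt1 at −0.45. The counts of the export and heparan sulfate lists were near the shares over all genes tested, 14.9% higher and 13% lower.

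Markers of other cell types were counted in the same comparison, among genes that passed the filter on low counts. Some genes with few reads in NT, such as Foxa2 and Col3a1, passed it through the guide libraries alone and could only be called higher. Of 14 primitive endoderm genes tested, 11 rose and 1 fell, with a median of 1.49, and their summed level was 83.7 to 115 CPM in NT, 175 to 212 in Mycn-gRNA2 libraries and 175 to 192 in Mycn-gRNA3 libraries. Lrp2, an endocytic receptor, rose by 0.99. Foxa2, an endoderm transcription factor, measured 0.0646 ± 0.0237 CPM in NT, 1.80 ± 0.392 in Mycn-gRNA2 libraries and 2.73 ± 0.765 in Mycn-gRNA3 libraries (adjusted p = 1.65e-06). Foxq1 (3.11) and the endocytic receptor gene Cubn (2.57) also rose. Of 11 parietal endoderm genes, 7 rose and 0 fell (0 lower at an unadjusted p under 0.05, 0 by DESeq2), among them Snai1 (1.52), Pth1r (2.29) and the keratin genes Krt8 (0.56) and Krt18 (0.94), and the summed level was 184 to 295, 218 to 419 and 240 to 381 CPM. Of 7 genes tested from the visceral endoderm list, 1 rose, Apob (0.92), and 1 fell, Tdh (−0.23). The list's summed levels were 917 to 1070, 729 to 851 and 812 to 1010 CPM. Afp, Apoa1, Rbp4 and Cer1 had 3, 7, 33 and 1 reads in the NT libraries together, and Ttr and Apoa4 had 0. Those sums therefore came almost wholly from other genes of the list and are not a measure of visceral endoderm. The call of Tdh was lost when any 1 of the 4 NT libraries, Mycn-gRNA2 replicate 3 or Mycn-gRNA3 replicate 2, 3 or 4 was left out, and without Mycn-gRNA3 replicate 1 the lower count was 2. The part of endoderm-like cells in the rise of Col4a1 and Col4a2 was not tested.

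Of 15 fibroblast or mesenchyme genes listed, 9 were tested. Of these 9, 6 rose, among them Col5a2 (1.88), Col6a1 (3.39) and Thy1 (1.11), and 0 fell (0 lower at an unadjusted p under 0.05, 0 by DESeq2). The summed level was 11.8 to 19.4 CPM in NT, 16.8 to 33 in Mycn-gRNA2 libraries and 20.8 to 29.6 in Mycn-gRNA3 libraries. Col3a1 had 1 read in all 4 NT libraries together, 56 in Mycn-gRNA2 and 59 in Mycn-gRNA3 (adjusted p = 2.87e-05), and Lum and Postn were at 0 in NT. Of 8 endothelium genes, 2 rose, the VEGF receptor genes Kdr (2.97) and Flt1 (0.83), and 0 fell (1 lower at an unadjusted p under 0.05, 0 by DESeq2, 1 without Mycn-gRNA2 replicate 2). Their summed level was 53.6 to 56.5, 60.1 to 74.6 and 62.5 to 69 CPM. Of 5 trophoblast genes, 0 were called in either direction by edgeR (1 lower at an unadjusted p under 0.05, 1 higher by DESeq2, 1 higher without NT replicate 3 and 1 lower without NT replicate 2), and Tpbpa and Prl3d1 had 0 reads in all libraries. The summed level was 30.4 to 47.7, 36.7 to 45.2 and 39 to 41 CPM. These values stand beside the rise of the collagen IV chains, and their part in it was not tested.

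Of 13 embryonic stem cell genes, 6 fell and 0 rose (0 higher at an unadjusted p under 0.05, 0 by DESeq2, 1 without Mycn-gRNA2 replicate 1), with a median of −0.177 and summed levels of 6230 to 6810 CPM in NT, 4950 to 5730 in Mycn-gRNA2 libraries and 5530 to 5860 in Mycn-gRNA3 libraries. Nanog fell by 0.60 on the log2 scale, Tbx3 by 0.69, Tfcp2l1 by 0.48 and Fgf4 by 0.44. Per ERCC read the counts of this list were 3 higher, Klf2 (0.56), Utf1 (0.58) and Dppa5a (0.62), and 1 lower, Tbx3 (−0.31, adjusted p = 0.0491), with a median of 0.221, and with Mycn-gRNA3 alone 6 were higher and 0 lower (0 lower at an unadjusted p under 0.05 by edgeR). Of 9 epiblast and neural genes, 4 rose, Pou3f1 (1.20), Sox3 (2.01), Pax6 (0.95) and Dnmt3b (0.99), and 1 fell, Sox1 (−0.77), with summed levels of 279 to 328, 276 to 483 and 323 to 506 CPM. Per ERCC read, where 56.4% of all genes were called higher with both guides, the matrix lists had 9 of 19 other basement membrane genes, 10 of 18 receptors, 16 of 21 collagen folding genes, 10 of 13 export genes, 8 of 15 heparan sulfate genes and 17 of 21 protease genes higher. The marker lists had 12 of 14 primitive endoderm, 8 of 11 parietal endoderm, 1 of 7 visceral endoderm, 6 of 9 fibroblast, 7 of 8 endothelium, 1 of 5 trophoblast and 7 of 9 epiblast and neural genes higher.

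**Figure D5:**
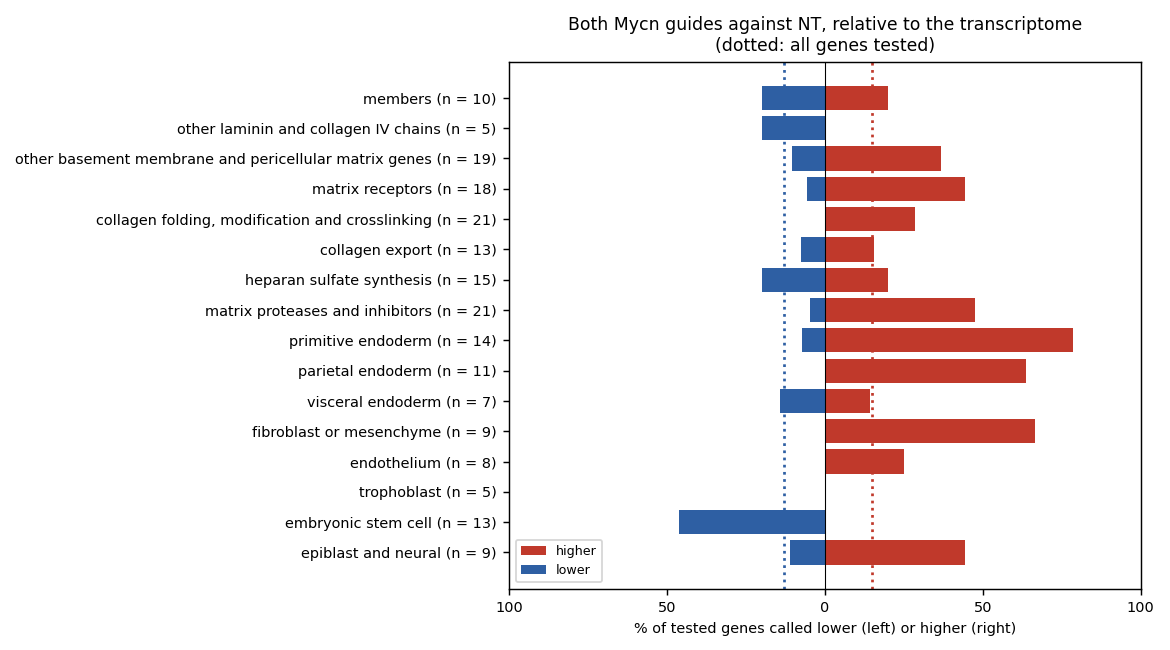
Percent of the tested genes of each list called higher (red, right) or lower (blue, left) with both Mycn guides relative to the transcriptome. Dotted lines mark the percent of all genes tested, 14.9% higher and 13% lower, and n is the number tested. The members stand near these lines at 20% in each direction, and the primitive endoderm list reaches farthest, with 11 of 14 higher.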

How the data were processed

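PolyA libraries were made from RNA of equal cell numbers with ERCC RNAs added after extraction, per the labels' protocols. Per the submitters' processing notes, Trim Galore 0.4.0, featureCounts of Subread 1.5.0, edgeR 3.32.1 and build mm10 were used. The aligner, annotation release and strand setting: not given in the sources used here. The authors deposited raw counts per gene for 24421 genes and 92 ERCC RNAs, and log2 values for 12042 genes. Checked against the counts, the deposited log2 values are log2(count + 0.5) less 1 library constant, which differed by at most 0.0015 from scaling on the ERCC RNAs with TMM, so these values served for an alternative test per ERCC read. There were 0 columns of per-sample values without a sample.

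Groups and replicate numbers came from the sample titles. The test on counts was that of edgeR 4.0.16 in R 4.3.3 (robust quasi-likelihood F test, a term per group, all 12 libraries, filterByExpr, Benjamini-Hochberg adjustment over 14497 genes, adjusted p under 0.05). Scaling was by TMM over endogenous genes or by ERCC totals. Rn45s, an rRNA precursor, held 7% to 12.5% of endogenous reads and stayed in. DESeq2 1.42.0 and limma 3.58.1 gave alternatives. Ratios were tested by exact two-sided permutation of the libraries. The procedures were tested on simulated data. Counting error is small for the members but not for markers with few reads, such as Col3a1, and reads carry no molecular identifiers. Values per ERCC read also take up errors in cell number and extraction. Counts of the 18 replicate pairs differed beyond sampling noise (chi-square over its degrees of freedom 8.57 to 72.8).

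Replicate numbers were shared across groups. Deviations from the group means (log2 CPM with a prior count of 2) of same-numbered libraries correlated across genes at 0.211 to 0.498 for Mycn-gRNA2 and Mycn-gRNA3 (over 0.1 in 4 of 4 numbers). Differently numbered libraries of these groups correlated at −0.504 to 0.353 (over 0.1 in 1 of 12). The alternative fit with the block had a term per replicate number over all 12 libraries, so it paired NT by number as well as these 2 groups. The main test did not use the pairing.

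The members, the gene lists and the tests were chosen with earlier results of these data known, and no list is independent evidence of its direction. Named genes are all members, Mycn, Alkbh5, the tested other laminin and collagen IV chains, and up to 4 called genes per other list with the lowest adjusted p with both guides, with further genes marked in the text. Some genes under this rule are not reported here. Dnmt3b, Pou5f1 and Sox2 were named outside the rule. The neighbour windows, chromosome medians and Y-linked genes were added after seeing the data. Promoter windows came from RefSeq (GRCm38.p6, whose primary chromosomes are those of mm10).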

Additional observations from a re-analysis of the deposited data

Results flagged for a closer look

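In 60 sets of 4 libraries (10 members, 3 groups and both scales), the highest or lowest library was compared with the others by its gap to the nearest, as a share of the range, and 2 exceeded the Dixon limit for 4 samples. Chance alone gives about 1 in 20 such sets. Lamc1 in Mycn-gRNA2 replicate 1 was 1009 CPM, with a gap of 0.899 of the range above the other libraries of its group, which stood at 954 to 959 CPM. Nid2 in Mycn-gRNA3 replicate 3 was 34.72 reads per 1000 ERCC reads, with a gap of 0.837 above the others at 26.3 to 27.7. Neither touched a call: without Mycn-gRNA2 replicate 1, Lamc1 was still called lower with both guides, and Nid2 was not called per ERCC read without Mycn-gRNA3 replicate 3.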

How the results depend on the processing

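Over 80 member results, 1540 values under alternatives kept their side of the threshold in 1446 cases, lost a call in 33 and gained one in 61. The sign differed in 70 cases, all of results past the threshold in neither setting. Col4a1 and Col4a2 were called higher against NT under every alternative run on both scales. Lamc1 relative to the transcriptome was lost only within replicates 1 and 2, and Hspg2 depended on NT replicates 3 and 4. The causes of these changes were not tested. Leaving out Rn45s and Lars2 was chosen after seeing the data. The limits are 4 libraries per group, replicate numbers of unstated meaning and a Y-linked difference between NT and guide groups.

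For comparisons with NT, same-numbered libraries deviated together at 0.0563 to 0.37 (Mycn-gRNA2) and 0.0329 to 0.24 (Mycn-gRNA3), with 2 of 4 over 0.1 each, so the number alone is shared. With the replicate block, 2 members were lower relative to the transcriptome with each guide (1 without it), Hspg2 being added, and 4456 genes were called with both guides instead of 4034. Between the guides, paired by number, the block called 2 genes per ERCC read instead of 1, and no member call changed.

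Relative to the transcriptome, with Mycn-gRNA3 2 members were lower under DESeq2, DESeq2 size factors in edgeR, Rn45s and Lars2 left out, and only the groups compared, where 6040 genes were called instead of 3925, and 1549 instead of 2484 with Mycn-gRNA2. Replicates 1 and 2 alone called 0 members lower and 178, 33 and 226 genes (both guides, Mycn-gRNA2, Mycn-gRNA3). Replicates 3 and 4 alone called 4 members higher in each, 3 lower with each guide, and 6385, 4830 and 5955 genes, and 10 between the guides, where DESeq2 called 1. Per ERCC read, no filter gave 5 members higher with Mycn-gRNA2. Replicates 1 and 2 alone gave 2 members higher with both guides, 3 with Mycn-gRNA3 and 1 between the guides, and 1113, 410, 2792 and 520 genes. Replicates 3 and 4 alone gave 7 members and 8200 genes with Mycn-gRNA2, and 7 genes between the guides, and only the groups compared gave 0 there.

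Leaving out 1 library gave, relative to the transcriptome, 1 to 3 members lower with both guides, 1 to 2 with Mycn-gRNA2 and 1 to 3 with Mycn-gRNA3, and 2928 to 6157, 1622 to 4114 and 2655 to 6012 genes, the highest without Mycn-gRNA2 replicate 1. Per ERCC read it gave 3 to 7 members higher with both guides, 2 to 6 with Mycn-gRNA2 (1866 to 7946 genes, the highest without Mycn-gRNA2 replicate 2) and 0 to 1 between the guides (0 to 1988 genes, the highest without Mycn-gRNA2 replicate 4).

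Signs differed, with no call in either setting, as follows (log2). Replicates 1 and 2 alone, relative: Lama1 0.0263 (both), 0.0226 (Mycn-gRNA2), 0.0301 (Mycn-gRNA3) and 0.00748 (between guides), Sparc −0.0251, −0.0472 and −0.00292, Lama5 0.138 and Nid2 0.0484 with Mycn-gRNA3, and Hspg2 0.18 between guides (0.0177 with the replicate block). Replicates 3 and 4 alone, relative: Nid1 −0.0753, −0.03 and −0.121, and between guides Col4a1 −0.0729, Col4a2 −0.0997, Lama5 −0.0889 and Nid2 −0.0837. Per ERCC read, replicates 1 and 2 alone gave Lama5 −0.182 and Nid2 −0.0624 with Mycn-gRNA2. Replicates 3 and 4 alone gave Hspg2 0.0825 with Mycn-gRNA2 and −0.097 with Mycn-gRNA3, and between guides Col4a1 −0.071, Col4a2 −0.101, Lama1 −0.0668, Lama5 −0.103, Lamc1 −0.0914, Nid1 −0.0923, Nid2 −0.0969 and Hspg2 −0.18.

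With 1 library left out, ranges that crossed 0, relative to the transcriptome, were Nid2 −0.169 to 0.0272 with both guides, Nid2 −0.256 to 0.00525, Lamb1 −0.00572 to 0.23 and Sparc −0.000505 to 0.203 with Mycn-gRNA2, and Nid1 −0.0211 to 0.088, Lama5 −0.108 to 0.0426 and Nid2 −0.144 to 0.0524 with Mycn-gRNA3. Between guides they were Lama1 −0.0639 to 0.00193, Lama5 −0.0097 to 0.284, Nid1 −0.17 to 0.0363, Nid2 −0.0536 to 0.209, Sparc −0.0843 to 0.128, Lamb1 −0.04 to 0.204 and Hspg2 −0.15 to 0.095. Per ERCC read they were Hspg2 −0.124 to 0.0672 (both), −0.298 to 0.0541 (Mycn-gRNA2) and −0.0522 to 0.139 (Mycn-gRNA3), Lama5 −0.0985 to 0.309 and Nid2 −0.0196 to 0.429 with Mycn-gRNA2, and Lamc1 −0.0568 to 0.132 and Nid1 −0.0878 to 0.21 between guides. Ratio ranges were Lama1 to Lama5 −0.116 to 0.0755 (both) and −0.112 to 0.216 (Mycn-gRNA2), and Nid1 to Nid2 −0.333 to 0.0693 between guides.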
